A study of Mus musculus with 42 samples.

Results

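The interleukin-1 receptor family was followed here as 8 genes chosen by name: Il1r1, Il1r2, Il1rap, Il1rn, Il1rl1, Il18r1, Il18rap and Sigirr. Each gene matched 1 row of a count table of 46603 genes, and all 8 passed the filter on low counts in every comparison. Levels are CPM, each library's counts scaled to a common depth and corrected for composition. CD4+ T cells were sorted by a green fluorescent Foxp3 reporter into regulatory cells (Treg) and conventional cells (Tconv), and 42 bulk RNA libraries were made. The sites were ileum with its draining mesenteric lymph node (mLN), and ankle synovium with its draining nodes, inguinal plus popliteal (iLN+pLN, here the joint nodes). TNFdARE mice, whose Tnf gene lacks an AU-rich element that destabilises the transcript, were set against WT littermates, and mice of both genotypes carried the DEREG reporter transgene. The gate therefore read the transgene's fluorescence and not the Foxp3 protein.

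The 16 groups of cell type, site and genotype came from 3 independent experiments, A, B and C. Groups held 3 libraries, with these exceptions: TNFdARE mLN Treg and Tconv had 2 each (B and C), TNFdARE synovial Tconv 2 (A and B), and in WT synovium Treg had 2 (A and B) while Tconv had 1 (A). The labels give neither the ages nor the number of mice behind a library. Total counts lay between 18261064 and 30301202 per library. In every library 5 T cell markers summed to between 1814 and 4825 CPM. Summed CPM of 5 fibroblast markers reached 2434, 3405 and 942 in TNFdARE synovial Treg (A, B, C) and 11054 and 8989 in WT synovial Treg (A, B), so the synovial Treg libraries hold other RNA besides that of T cells. In ileal Treg the fibroblast markers summed to between 13.2 and 1449 CPM in TNFdARE and between 15.4 and 567 CPM in WT libraries. Plasma cell markers summed to 6090 CPM in the TNFdARE and 2015 CPM in the WT ileal Treg library of experiment A. CD8 and NK cell markers summed to 908 CPM in the WT synovial Tconv library. In bulk RNA, a smaller share of expressing cells and less RNA per cell cannot be told apart.

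Interleukin-1 alpha and beta signal through Il1r1 together with the accessory chain Il1rap, and the adaptor Myd88 carries the signal to kinases and NF-kB. Il1r2 binds the same ligands but lacks the signalling domain, so it acts as a decoy, while Il1rn encodes the secreted antagonist that occupies Il1r1 without activating it. Il1rl1 (ST2) is the interleukin-33 receptor, which also uses Il1rap and is known on tissue Treg. Il18r1 and Il18rap are the ligand-binding and accessory chains of the interleukin-18 receptor, and Sigirr is an inhibitory member.

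On GRCm38, Il1r2, Il1r1, Il1rl1, Il18r1 and Il18rap lie in that order on the plus strand of chromosome 1, between 40074079 and 40551705, and 136 bases separate the end of Il1rl1 from the start of Il18r1. Il1rn lies on chromosome 2 (24336853 to 24351494), Sigirr on chromosome 7 (141091175 to 141100572) and Il1rap on chromosome 16 (26581704 to 26730117). Il1r2 overlaps the antisense gene Gm16894 and the same-strand Gm37347, which held 2267 and 1327 counts over all libraries, against 126635 for Il1r2. The counting was not stated to use strand, so reads of Il1r2 and Gm16894 cannot be told apart where they overlap.

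Promoters of Il1r2 and Il1rl1 are printed because these genes had the most genotype calls. RefSeq windows on GRCm38.p6 run from 250 bases before to 50 after a start, and 13 windows matched 7 of the 8 genes. They were searched on both strands for a STAT motif (TTCNNNGAA), for a GATA motif (AGATAA), for a forkhead motif (TGTTTAC) and for the AP-1 and NF-kB consensus motifs. Capitals mark matches. The Il1r2 window is chr1:40085843-40086142, and the Il1rl1 windows are chr1:40429320-40429619 (distal) and chr1:40439379-40439678 (proximal), all on the plus strand.
Il1r2: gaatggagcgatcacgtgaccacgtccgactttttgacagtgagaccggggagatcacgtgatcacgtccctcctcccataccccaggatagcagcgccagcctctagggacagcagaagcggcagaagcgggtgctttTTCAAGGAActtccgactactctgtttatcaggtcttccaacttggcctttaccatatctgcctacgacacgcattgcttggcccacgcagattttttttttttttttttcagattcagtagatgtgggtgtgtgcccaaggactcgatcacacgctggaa
Il1rl1 distal: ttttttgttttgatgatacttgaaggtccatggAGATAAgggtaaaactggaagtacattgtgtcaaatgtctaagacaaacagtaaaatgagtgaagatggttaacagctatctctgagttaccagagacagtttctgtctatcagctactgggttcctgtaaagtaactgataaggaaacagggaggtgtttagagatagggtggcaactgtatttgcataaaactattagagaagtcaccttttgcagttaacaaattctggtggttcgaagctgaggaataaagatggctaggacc
Il1rl1 proximal: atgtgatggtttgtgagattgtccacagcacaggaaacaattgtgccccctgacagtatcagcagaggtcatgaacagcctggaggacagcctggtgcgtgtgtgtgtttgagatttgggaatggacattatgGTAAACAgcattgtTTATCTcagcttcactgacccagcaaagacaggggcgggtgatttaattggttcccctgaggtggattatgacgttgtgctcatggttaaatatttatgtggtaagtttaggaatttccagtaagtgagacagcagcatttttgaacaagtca
The Il1r2 window holds 1 STAT match, the distal Il1rl1 window 1 GATA match, and the proximal one a forkhead and a GATA match. Among 32851 promoters of the same length, 8.3% hold the STAT motif, 11.2% the GATA motif and 3.65% the forkhead motif. The GATA and forkhead letters of the proximal window do not overlap. Gene counts do not tell which Il1rl1 start was used, nor the membrane from the soluble form.

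Il1r2 differed between the genotypes in most groups of T cells. In joint node Treg it stood at 219, 161 and 141 CPM in TNFdARE libraries (A, B, C), against 21.8, 26.5 and 27.4 CPM in WT libraries. In mLN Treg it stood at 231 and 161 CPM in TNFdARE libraries (B, C), against 31.7, 19.4 and 31.6 CPM in WT libraries. The genotypes did not overlap at either node, and the log2 fold change (TNFdARE over WT, ± SE) was 2.78 ± 0.18 in joint node Treg and 2.89 ± 0.22 in mLN Treg. With edgeR's quasi-likelihood test and Benjamini-Hochberg adjustment over all genes, the adjusted p was 1.2e-06 and 6.3e-05, in that order. In ileal Treg, levels were 355, 209 and 347 CPM in TNFdARE libraries and 148, 123 and 222 CPM in WT libraries. These ranges overlapped, and the difference of 0.85 ± 0.27 did not pass (adjusted p = 0.21). With the experiment as a replicate block, it passed (0.86, adjusted p = 0.029).

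Tconv held less Il1r2 than Treg in the nodes, and Il1r2 rose in TNFdARE Tconv of the ileum and both nodes. Joint node Tconv had 21.9, 18.7 and 20.1 CPM in TNFdARE libraries, against 0.713, 0.184 and 0.717 CPM in WT libraries. The log2 fold change was 5.23 ± 0.28 (edgeR adjusted p = 9.6e-08). mLN Tconv had 18.9 and 27.1 CPM in TNFdARE libraries, against 1.74, 1.47 and 1.88 CPM in WT libraries (3.73 ± 0.28, edgeR adjusted p = 4.4e-05). Ileal Tconv had 396, 371 and 431 CPM in TNFdARE libraries, against 77.1, 59.9 and 93.2 CPM in WT libraries. That difference also passed (2.39 ± 0.28, edgeR adjusted p = 0.0019). The TNFdARE ileal Tconv libraries lay above every TNFdARE ileal Treg library, and the WT ones below every WT ileal Treg library. No TNFdARE Tconv library overlapped with a WT one at these sites.

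Whether the genotype difference itself depended on the cell type was tested as an interaction. For Il1r2 in the joint nodes it was smaller in Treg than in Tconv by 2.45 ± 0.37 on the log2 scale (interaction -2.45, edgeR adjusted p = 0.0076), where 0.449% of genes passed. It did not pass in limma voom (adjusted p = 0.32) or in a fit of all 42 libraries (adjusted p = 1.0). This was 1 call in 40 interaction tests of the 8 genes. In the ileum the Il1r2 interaction was -1.54 ± 0.38 (edgeR adjusted p = 0.54; with the replicate block -1.56, adjusted p = 0.046), where 0.0188% of genes passed. In the mLN it was -0.84 ± 0.37 (edgeR adjusted p = 0.61, 0.209% of genes). The mLN interaction of Il1rl1 was -2.92 ± 0.77 (edgeR adjusted p = 0.24) and passed without WT Tconv library C (-6.03, adjusted p = 0.014). Between sites, no member passed for the Treg genotype difference in ileum minus mLN (0.00598% of genes passed) or in mLN minus joint nodes (0.351%).

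Synovial Il1r2 rested on few WT libraries. TNFdARE synovial Treg had 465, 360 and 341 CPM, against 1.35 CPM (A) and 201 CPM (B) in WT synovial Treg. TNFdARE synovial Tconv had 265 and 232 CPM, against 2.91 CPM in the single WT library. Neither difference passed (Treg 1.96 ± 1.38, edgeR adjusted p = 0.59; Tconv 6.44 ± 2.48, adjusted p = 0.50). Both hung on the WT Treg pair: without WT Treg B the Treg difference was 8.17 (edgeR adjusted p = 0.0034), and the Tconv one passed without either WT Treg library (6.44, adjusted p = 0.0047 without A; 6.41, adjusted p = 0.0058 without B). WT synovial Treg A also held 292 CPM of macrophage and monocyte markers, against 3.16 CPM in B. The part of these in the result was not tested. Neutrophil markers, 5 genes of a cell type known for Il1r2, summed to at most 4.74 CPM in any of the 42 libraries. That highest sum was in WT synovial Treg A, from 1 of the 5 genes. The part of neutrophil RNA in Il1r2 was not tested.

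**Figure D1:**
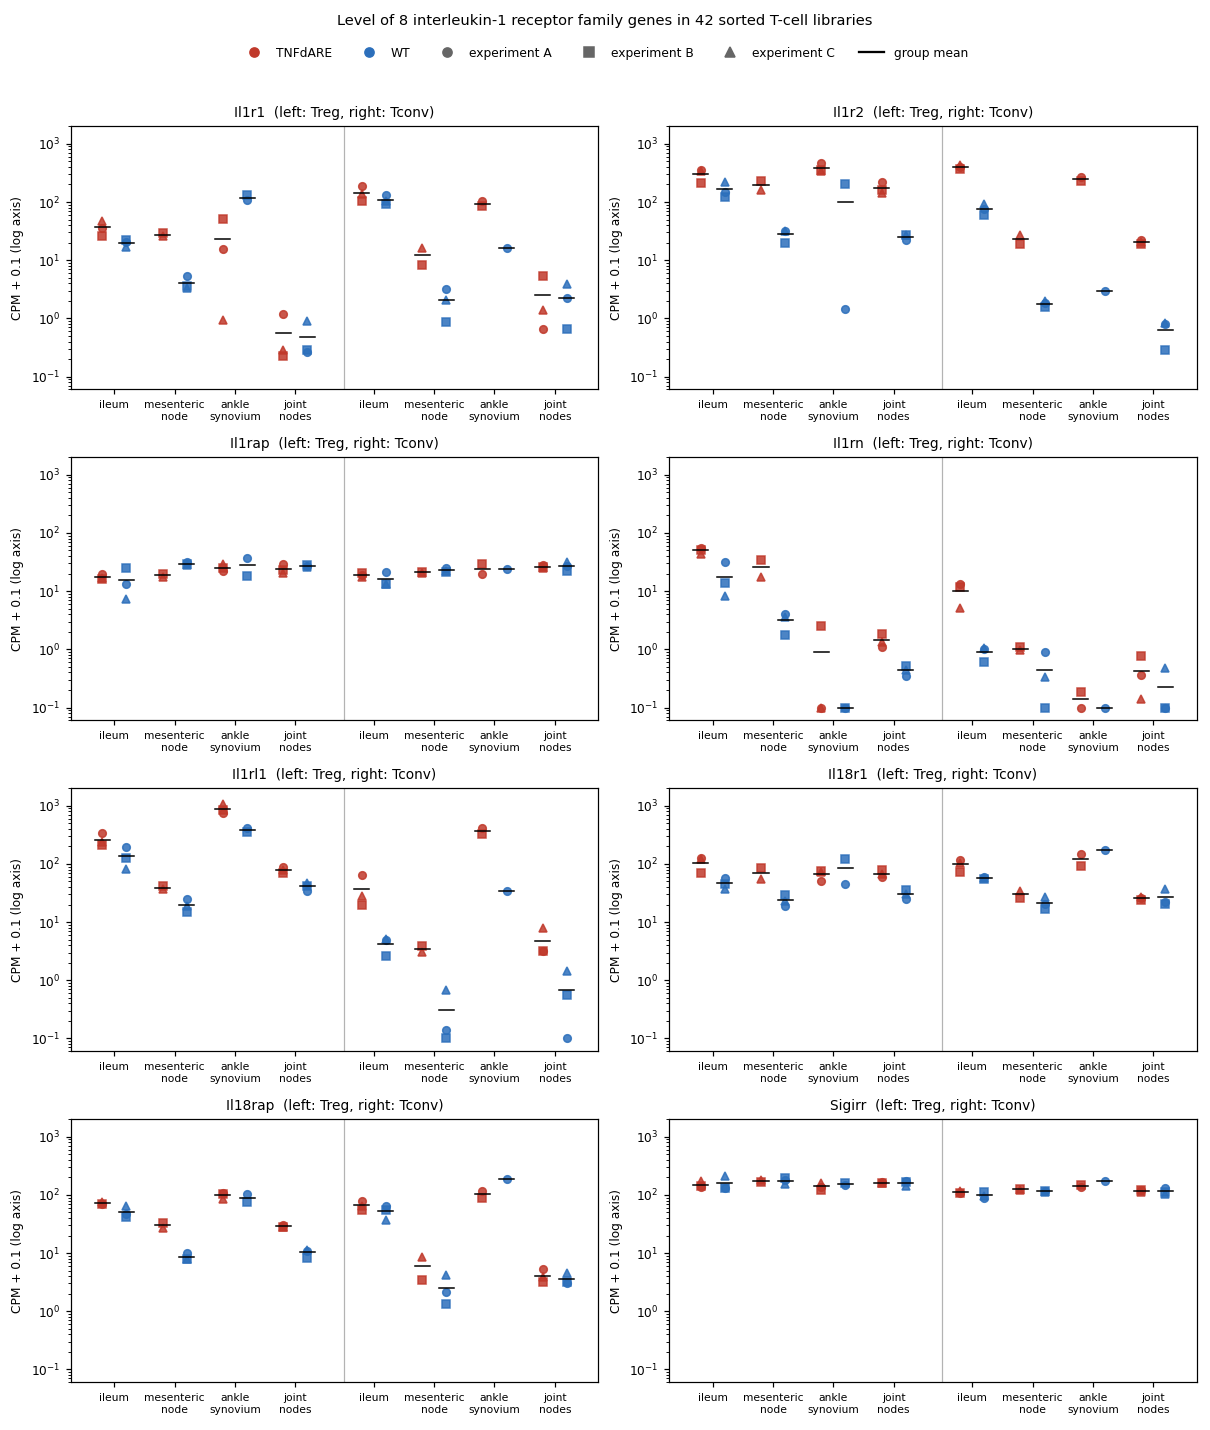
CPM of each gene in every library (log axis, 0.1 added), with the TNFdARE groups left of the WT groups, symbols for experiments and lines for group means. Il1r2 and Il1rl1 span the widest ranges, and Sigirr (88.7 to 209 CPM) and Il1rap (7.27 to 37.7 CPM) stayed within narrow ones.

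Il1r1, the signalling receptor, rose in the TNFdARE mLN, in both cell types, and passed at no other site. mLN Treg had 29 and 25.9 CPM in TNFdARE libraries, against 5.34, 3.45 and 3.24 CPM in WT libraries (log2 fold change 2.82 ± 0.42, edgeR adjusted p = 0.0022). mLN Tconv had 8.23 and 16.2 CPM in TNFdARE libraries, against 3.07, 0.755 and 1.99 CPM in WT libraries (2.62 ± 0.43, edgeR adjusted p = 0.0073). The groups did not overlap in either cell type. Without the TNFdARE library C, the Tconv difference no longer passed (2.10, adjusted p = 0.086). In ileal Treg the values were 36.3, 26.3 and 47 CPM in TNFdARE libraries and 20.8, 21.7 and 17 CPM in WT libraries, without overlap, but 0.86 ± 0.25 missed the threshold (edgeR adjusted p = 0.17). Ileal Tconv held more: 189, 106 and 136 CPM in TNFdARE libraries and 130, 91.9 and 102 CPM in WT libraries, which overlapped (0.42 ± 0.24, edgeR adjusted p = 0.89). The Treg genotype difference in mLN minus joint nodes was 2.49 ± 0.90 (edgeR adjusted p = 0.45), so a difference between these sites was not shown in the main fit. Without the filter it passed (2.48, edgeR adjusted p = 0.00035).

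Joint node Treg were almost without Il1r1, at 1.07, 0.123 and 0.189 CPM in TNFdARE libraries and 0.168, 0.183 and 0.785 CPM in WT libraries. Synovial Treg held 15.6, 51.7 and 0.830 CPM in TNFdARE libraries, against 107 and 130 CPM in WT libraries. The 2 groups did not overlap, but their difference did not pass (-2.38 ± 1.14, edgeR adjusted p = 0.53). Fibroblasts are known to express Il1r1, and the 5 fibroblast markers, all with counts in these 5 libraries, were also highest in the WT pair. The part of fibroblast RNA in the synovial Il1r1 levels was not tested.

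Il1rap, the shared accessory chain, varied little: group means lay between 15.2 and 29.8 CPM. It fell in TNFdARE mLN Treg, with 19.8 and 17.7 CPM in TNFdARE libraries, against 31.8, 29.5 and 28 CPM in WT libraries (-0.61 ± 0.13, edgeR adjusted p = 0.016). Leaving out TNFdARE library B or C ended the call (adjusted p = 0.058 and 0.13). It was the only genotype call of a lower level among the 8 genes.

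Il1rn, the antagonist, was a gene of the gut and its node. Ileal Treg had 55.8, 51.4 and 43.1 CPM in TNFdARE libraries, against 31.4, 13.7 and 8.16 CPM in WT libraries, without overlap, and the difference of 1.47 ± 0.48 did not pass (edgeR adjusted p = 0.23). In mLN Treg it rose to 34.6 and 17.4 CPM in TNFdARE libraries, against 3.92, 1.69 and 3.54 CPM in WT libraries (3.15 ± 0.59, edgeR adjusted p = 0.0087). Without TNFdARE library B that difference was 2.53 and did not pass (adjusted p = 0.16). Ileal Tconv had 12.9, 11.5 and 4.98 CPM in TNFdARE libraries, against 0.905, 0.513 and 0.974 CPM in WT libraries (3.63 ± 0.55, edgeR adjusted p = 0.0071; adjusted p = 0.050 and not passed without WT library B). In joint node Treg, Il1rn stayed under 2 CPM, with 0.985, 1.76 and 1.23 CPM in TNFdARE libraries and 0.251, 0.412 and 0.343 CPM in WT libraries. In joint node Tconv its difference of 1.39 ± 1.14 did not pass (edgeR adjusted p = 0.81). Synovial Treg had 0, 2.42 and 0 CPM in TNFdARE libraries and no count in either WT library, so no fold is given there. Macrophages are known to make Il1rn: their markers summed to 64.6, 13.5 and 4.12 CPM in TNFdARE ileal Treg and to 150, 22.8 and 14.9 CPM in WT ileal Treg. In mLN Treg they summed to 7.91 and 7.31 CPM in TNFdARE libraries and to between 5.49 and 7.91 CPM in WT libraries. The part of macrophage RNA in Il1rn was not tested.

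Il1rl1, the interleukin-33 receptor, was highest in synovial Treg and low in node Tconv. Synovial Treg had 760, 830 and 1064 CPM in TNFdARE libraries, against 415 and 353 CPM in WT libraries. They did not overlap, yet 1.23 ± 0.21 missed the threshold (edgeR adjusted p = 0.11). Mast cells are known for Il1rl1, and 6 mast cell and basophil markers had no count in any TNFdARE synovial Treg library, while WT library A held 102 CPM of them and B none. The part of mast cell RNA, or of the fibroblast RNA given above for these libraries, in Il1rl1 was not tested. Ileal Treg had 339, 210 and 238 CPM in TNFdARE libraries and 195, 127 and 82.7 CPM in WT libraries (0.93 ± 0.44, edgeR adjusted p = 0.40). Joint node Treg had 89.8, 70.2 and 77.1 CPM in TNFdARE libraries and 34.7, 41.6 and 47.3 CPM in WT libraries. Their difference of 0.94 ± 0.32 missed the threshold (edgeR adjusted p = 0.12) and passed with the replicate block (0.96, adjusted p = 0.031). mLN Treg had 41.1 and 36.3 CPM in TNFdARE libraries and 25, 14.8 and 19 CPM in WT libraries (1.03 ± 0.39, edgeR adjusted p = 0.17; 1.01, adjusted p = 0.027 without WT Tconv library C, which shares the fit). No Treg site thus gave a call in the main edgeR fit. At each of the 4 sites every TNFdARE library lay above every WT one. Il1rl1 passed in joint node and mLN Treg with only the groups compared (edgeR adjusted p = 0.00076 and 0.027). Both also passed with limma voom (adjusted p = 0.00067 and 0.0073). Without the filter, joint node, mLN and synovial Treg passed (edgeR adjusted p = 8.4e-12, 3.7e-05 and 0.033). Synovial Treg also passed with DESeq2 (adjusted p = 0.00012). Ileal Treg passed in none of these settings.

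In Tconv, Il1rl1 passed at all 4 sites in the main edgeR fit. With only the groups compared, the joint node and mLN Tconv calls were lost (edgeR adjusted p = 0.16 and 0.072). Synovial Tconv had 406 and 332 CPM in TNFdARE libraries, against 33.7 CPM in the single WT library (3.48 ± 0.33, edgeR adjusted p = 0.0082; with the replicate block 3.55, adjusted p = 0.071). Ileal Tconv had 65.2, 19.9 and 27.8 CPM in TNFdARE libraries, against 4.86, 2.48 and 5.08 CPM in WT libraries (3.20 ± 0.50, edgeR adjusted p = 0.0081). Leaving out WT library B ended that call (2.91, adjusted p = 0.050), and leaving out TNFdARE library A gave 2.55. mLN Tconv had 3.86 and 2.96 CPM in TNFdARE libraries, against 0.0404, 0 and 0.575 CPM in WT libraries (3.95 ± 0.63, edgeR adjusted p = 0.0056). Joint node Tconv had 3.15, 3.03 and 7.71 CPM in TNFdARE libraries, against 0, 0.459 and 1.32 CPM in WT libraries (3.15 ± 0.58, edgeR adjusted p = 0.006). At such counts the size of the difference is loose. It moved to 7.04 without mLN WT library C, and lay between 2.49 (without WT library A) and 4.39 (without WT library C) in the joint nodes, where it was 2.53 without TNFdARE library C.

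**Figure D2:**
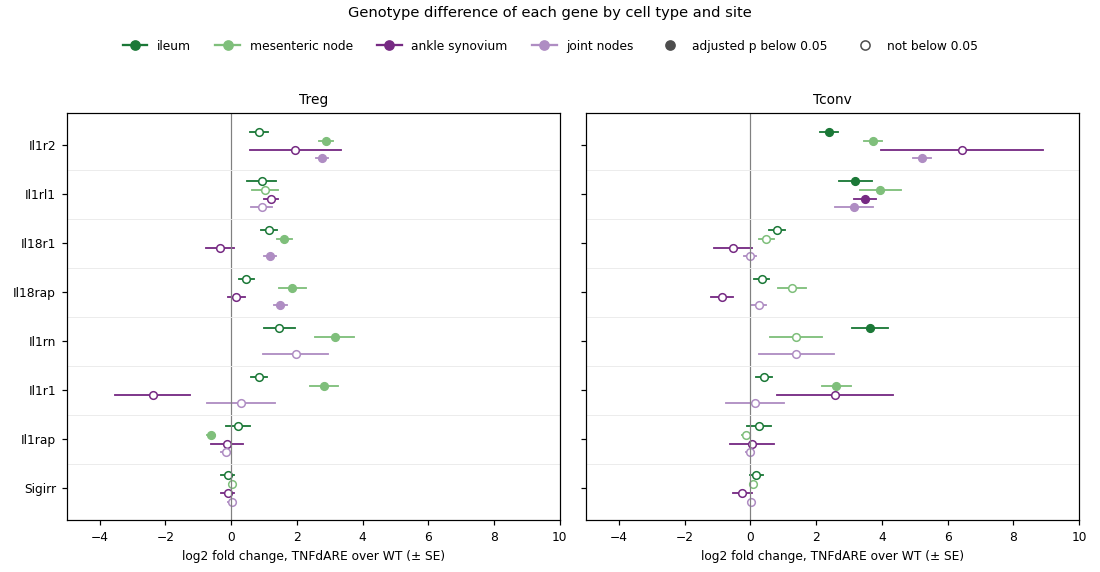
Log2 fold change of TNFdARE over WT, with standard errors, for each gene in Treg and Tconv at the 4 sites. Filled points passed at an adjusted p below 0.05: Il1r2 passed at the nodes in both cell types and in ileal Tconv, and Il1rl1 at all 4 sites in Tconv, and synovial Il1rn is left out because its WT libraries are at 0.

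Foxp3, the gene whose reporter set the gate, rose in TNFdARE Tconv at all 4 sites. Ileal Tconv had 200, 124 and 115 CPM of Foxp3 in TNFdARE libraries, against 18.5, 13.4 and 16.7 CPM in WT libraries (3.18 ± 0.22, edgeR adjusted p = 6.0e-05). Joint node Tconv had 34.9, 30.3 and 39 CPM in TNFdARE libraries, against 6.34, 6.29 and 7.72 CPM in WT libraries (2.37 ± 0.11, edgeR adjusted p = 2.5e-08). The difference was 2.10 ± 0.17 in mLN Tconv (edgeR adjusted p = 6.3e-05) and 4.34 ± 0.48 in synovial Tconv (adjusted p = 0.014). The 5 Treg markers summed in joint node Tconv to between 100 and 127 CPM in TNFdARE libraries and between 31.8 and 40.4 CPM in WT libraries, and in ileal Tconv to between 2938 and 3315 CPM in TNFdARE libraries and between 1647 and 1836 CPM in WT libraries. Ctla4, which activated T cells are also known to express, averaged 2577 CPM of the sum in TNFdARE and 1527 CPM in WT ileal Tconv. In mLN Tconv the 5 markers summed to 118 and 201 CPM in TNFdARE libraries and to between 44.5 and 71.3 CPM in WT libraries, and in synovial Tconv to 2925 and 2995 CPM in TNFdARE libraries and 452 CPM in the WT one. All 5 had counts in every Tconv library except the WT synovial one, where Lrrc32 was at 0.

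Set against the Treg mean of the same site and genotype, TNFdARE joint node Tconv held 11.6% of the Il1r2 level, 5.86% of the Il1rl1 level and 3.05% of the Foxp3 level. WT joint node Tconv held 2.13%, 1.44% and 0.599% of the same 3 levels. In TNFdARE mLN Tconv the shares were 11.7% for Il1r2, 8.80% for Il1rl1 and 2.59% for Foxp3. In TNFdARE synovial Tconv they were 64.0%, 41.7% and 43.7%, in the same order of genes. In the ileum, TNFdARE Tconv held 132% of the Treg Il1r2 level but 14.4% of the Il1rl1 level and 9.41% of the Foxp3 level. The part of Foxp3-expressing cells in the Tconv differences was not tested.

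**Figure D3:**
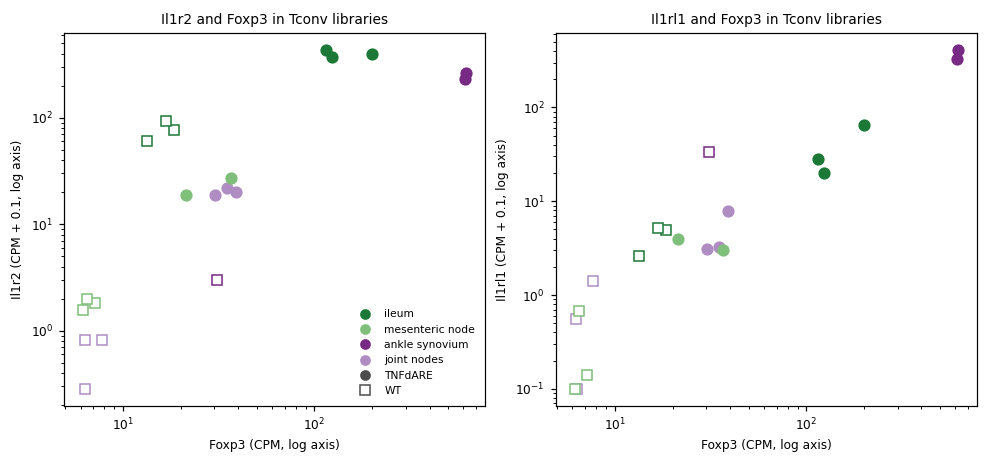
CPM of Il1r2 (left) and Il1rl1 (right, both with 0.1 added) against Foxp3 in the Tconv libraries, on log axes. Filled circles are TNFdARE and open squares WT libraries: at each site the TNFdARE libraries lie at higher Foxp3 and at higher Il1r2 and Il1rl1, and the ileal libraries hold the most Il1r2 for their Foxp3.

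The interleukin-18 receptor chains moved together in node Treg. Il18r1 in mLN Treg stood at 84.7 and 55.4 CPM in TNFdARE libraries, against 18.5, 29.3 and 23.3 CPM in WT libraries (1.62 ± 0.23, edgeR adjusted p = 0.0017). In joint node Treg it stood at 58.4, 79.9 and 66.3 CPM in TNFdARE libraries, against 24.4, 35.6 and 30.4 CPM in WT libraries (1.18 ± 0.18, edgeR adjusted p = 0.0015). Il18rap in joint node Treg stood at 30.1, 27.6 and 28.2 CPM in TNFdARE libraries, against 10.9, 8.29 and 11.3 CPM in WT libraries (1.49 ± 0.20, edgeR adjusted p = 0.00039). None of these groups overlapped. Il18rap in mLN Treg stood at 32.6 and 27.1 CPM in TNFdARE libraries, against 9.81, 7.92 and 7.74 CPM in WT libraries (1.87 ± 0.40, edgeR adjusted p = 0.019), a call lost without TNFdARE library B (adjusted p = 0.16), WT library B (0.083) or WT library C (0.057). Ileal Treg had 125, 69.1 and 121 CPM of Il18r1 in TNFdARE libraries and 56.5, 45.6 and 37.3 CPM in WT libraries. That difference missed the threshold (1.151 ± 0.24, edgeR adjusted p = 0.066) but passed with the replicate block (1.12, adjusted p = 0.021) and without TNFdARE library B (1.39, adjusted p = 0.032).

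Neither chain passed between genotypes in Tconv in the main edgeR fit. Ileal Tconv had 118, 73.4 and 105 CPM of Il18r1 in TNFdARE libraries, against 59, 54.6 and 56.2 CPM in WT libraries. These did not overlap, but 0.82 ± 0.24 missed the threshold (edgeR adjusted p = 0.21). That difference passed with DESeq2 (0.82, adjusted p = 0.036), with limma voom (0.81, adjusted p = 0.022) and with only the groups compared (0.82, adjusted p = 0.028). Joint node Tconv had 26.2, 24 and 27.4 CPM of Il18r1 in TNFdARE libraries and 22.2, 20.6 and 37.1 CPM in WT libraries (-0.01 ± 0.18, edgeR adjusted p = 1.0). The joint node interaction, Treg minus Tconv, was 1.19 ± 0.26 for Il18r1 (edgeR adjusted p = 0.078) and 1.24 ± 0.29 for Il18rap (adjusted p = 0.11). Both passed with the replicate block (1.18, adjusted p = 0.027, and 1.27, adjusted p = 0.030), and Il18rap also without TNFdARE Tconv library A (1.51, adjusted p = 0.037). In the mLN, Il18rap in Tconv missed the threshold (1.26 ± 0.43, edgeR adjusted p = 0.22). It passed when WT library C was left out (1.84, edgeR adjusted p = 0.039) and without the filter (1.25, adjusted p = 0.00012). Il18r1 in mLN Tconv also passed without the filter (0.48, edgeR adjusted p = 0.034). Sigirr, the inhibitory receptor, passed in no genotype comparison, and its estimates lay between -0.24 ± 0.27 (synovial Tconv) and 0.18 ± 0.19 (ileal Tconv).

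Over the 8 genotype comparisons, 18 of 64 tests of these genes passed, 17 of them for a higher level in TNFdARE cells. In Treg, 6 of 8 genes passed in the mLN, where 5.68% of all genes did, and 3 of 8 in the joint nodes, where 5.70% did. In the ileum and synovium no gene of the 8 passed in Treg, and 0.729% and 0.156% of all genes did. In Tconv, 3 of 8 passed in the ileum (1.31% of all genes), 3 in the mLN (2.36%), 2 in the joint nodes (2.79%) and 1 in the synovium (0.512%). The median log2 fold change of the 8 genes was 1.74 in mLN Treg and 1.06 in joint node Treg, against 0.01 and -0.02 for all genes tested. In ileal and synovial Treg it was 0.85 and 0.03, against 0.00 and 0.12 for all genes. In Tconv it was 0.62 in the ileum, 1.32 in the mLN, 1.31 in the synovium and 0.20 in the joint nodes, against -0.02, 0.00, 0.24 and 0.01 for all genes.

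Treg and Tconv of the same site were compared with both genotypes weighted equally, to ask which receptors go with the reporter sort. In the mLN 7 of 8 genes were higher in Treg (38.6% of all genes passed), and in the joint nodes 5 were higher and 1 lower (43.2%). In the ileum 3 were higher and 1 lower (14.8%), and in the synovium 1 was higher (1.10%). Il1rl1 was higher in Treg at every site, with log2 differences (Treg minus Tconv) of 3.93 ± 0.35 in the ileum (edgeR adjusted p = 3.3e-05), 5.00 ± 0.39 in the mLN (adjusted p = 9.2e-07), 2.34 ± 0.20 in the synovium (adjusted p = 0.0044) and 5.18 ± 0.32 in the joint nodes (adjusted p = 6.8e-09). In the synovium, Il1r2 (2.84 ± 1.30, edgeR adjusted p = 0.47) passed without WT Treg library A (3.34, adjusted p = 0.0058), and Il18r1 (-1.003 ± 0.36, adjusted p = 0.33) without WT Treg library B (-1.41, adjusted p = 0.034). Without WT Tconv library C the node Il1rl1 values were 6.53 (mLN) and 5.80 (joint nodes). Il1r2 was higher in Treg of the mLN (3.56 ± 0.19, edgeR adjusted p = 4.6e-08) and the joint nodes (4.33 ± 0.17, adjusted p = 4.6e-11), but the ileal difference of 0.36 ± 0.19 did not pass (adjusted p = 0.24). That ileal value averaged genotypes that went opposite ways. Tconv held 46.7% of the Treg mean in WT ileum, with every Treg library above every Tconv one. In TNFdARE ileum Tconv held 132%, with every Treg library below every Tconv one. The ileal interaction is given above.

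Il1r1 differed in direction between sites. It was lower in Treg of the ileum (-2.20 ± 0.18, edgeR adjusted p = 1.7e-05) and the joint nodes (-2.38 ± 0.69, adjusted p = 0.011), and higher in Treg of the mLN (1.12 ± 0.30, adjusted p = 0.012). The mLN call was lost without TNFdARE Tconv library B (0.92, adjusted p = 0.058). The joint node value, from levels near 1 CPM, moved to -3.15 without TNFdARE Treg library A and to -1.75 without TNFdARE Tconv library B. Il1rn was higher in Treg of the ileum (3.42 ± 0.38, edgeR adjusted p = 0.00012) and the mLN (3.96 ± 0.51, adjusted p = 6.5e-05; 4.71 without WT Tconv library A). Beside the ileal difference, epithelial markers summed to between 26.1 and 658 CPM in TNFdARE and between 42.5 and 402 CPM in WT ileal Treg, against between 21.2 and 79.4 CPM in TNFdARE and between 10.9 and 58.2 CPM in WT ileal Tconv. Macrophage markers summed in ileal Tconv to 7.60, 8.50 and 7.17 CPM in TNFdARE libraries and to 34.3, 9.27 and 7.95 CPM in WT libraries. Their part in the Il1rn difference was not tested. In the joint nodes its difference of 1.81 ± 0.75 missed the threshold (edgeR adjusted p = 0.067) and passed without TNFdARE Tconv library B (2.31, adjusted p = 0.038) or WT Tconv library C (4.03, adjusted p = 0.0024).

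Il18rap was higher in Treg of both nodes, by 2.08 ± 0.31 in the mLN (edgeR adjusted p = 0.00021) and 2.21 ± 0.15 in the joint nodes (adjusted p = 2.0e-08), and Il18r1 by 0.69 ± 0.17 (adjusted p = 0.0067) and 0.81 ± 0.13 (adjusted p = 0.00014). In the ileum neither chain passed between the cell types (Il18r1 -0.09 ± 0.17, Il18rap 0.05 ± 0.16, edgeR adjusted p = 0.77 and 0.87). Sigirr was modestly higher in Treg of the ileum (0.57 ± 0.14, edgeR adjusted p = 0.018), the mLN (0.54 ± 0.07, adjusted p = 6.5e-05) and the joint nodes (0.46 ± 0.08, adjusted p = 0.00022). The ileal Sigirr call was lost without Tconv library WT A (adjusted p = 0.066), TNFdARE B (0.062) or WT C (0.064), and with a covariate for sample-sheet number (0.13). Il1rap passed at no site (-0.09 ± 0.26 in the ileum, 0.12 ± 0.09 in the mLN, 0.10 ± 0.42 in the synovium and -0.04 ± 0.09 in the joint nodes, edgeR adjusted p of 0.315 or more).

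The balance of decoy over signalling receptor was taken within each library as log2 of (Il1r2 count + 1) over (Il1r1 count + 1), where library size cancels. In the joint nodes it averaged 7.56 ± 1.79 in Treg and 0.94 ± 3.14 in Tconv (SD, n = 6 libraries each). The difference of 6.63 had an exact two-sided permutation p of 0.0043 (0.0087 adjusted over the 4 sites). In the ileum it averaged 3.03 ± 0.42 in Treg and 0.51 ± 1.152 in Tconv (SD, n = 6 each; difference 2.52, exact permutation p = 0.0022, adjusted p = 0.0087). In the mLN it averaged 2.79 ± 0.33 in Treg and 0.39 ± 0.82 in Tconv (SD, n = 5 each; difference 2.39, exact permutation p = 0.0079, adjusted p = 0.011). Taken as pairs of the same experiment and genotype, the mLN difference had an exact p of 0.0625, the smallest that 5 pairs allow. In the synovium it averaged 2.13 ± 5.54 in Treg and 0.12 ± 2.22 in Tconv (SD, n = 5 and 3; difference 2.01, exact permutation p = 0.64).

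Within Tconv of the ileum and the joint nodes, the ratio also parted the genotypes. In ileal Tconv it was 1.07, 1.81 and 1.67 in TNFdARE libraries and -0.75, -0.62 and -0.14 in WT libraries. In joint node Tconv it was 5.16, 1.81 and 3.89 in TNFdARE libraries and -1.56, -1.38 and -2.30 in WT libraries. In mLN Tconv the genotypes overlapped, at 1.19 and 0.75 in TNFdARE libraries (B, C) and -0.81, 0.92 and -0.08 in WT libraries. In ileal Treg the genotypes overlapped, at 3.29, 2.99 and 2.89 in TNFdARE libraries and 2.82, 2.50 and 3.71 in WT libraries. With 3 libraries or fewer in a group, no permutation test can pass, so these are given as values. On the authors' FPKM scale, which allows a comparison per length, Il1r2 averaged 111 and Il1r1 0.065 in TNFdARE joint node Treg, while in WT ileal Tconv they averaged 43.2 and 14.8.

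**Figure D4:**
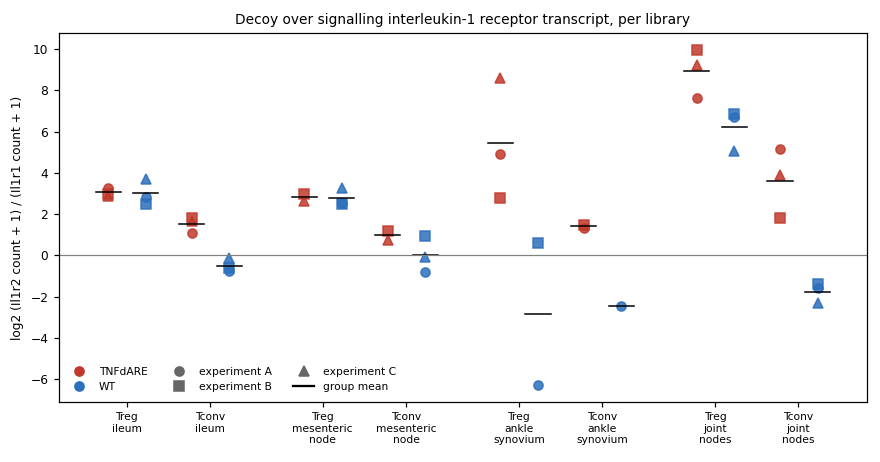
Log2 ratio of Il1r2 to Il1r1 counts (1 added to each) in every library, Treg left of Tconv and TNFdARE left of WT at each site, with group means as lines. All Treg lie above all Tconv in the ileum and the mLN. In the joint nodes WT Treg C (5.04) lies just below TNFdARE Tconv A (5.16), and the WT synovial Treg libraries lie far apart, at -6.26 (A) and 0.62 (B).

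Tissue was then compared with its draining node, again over both genotypes. In Treg of the ileum against the mLN, 6 of 8 genes were higher (29.2% of all genes passed): Il1rl1 by 2.76 ± 0.25 (edgeR adjusted p = 4.4e-05), Il18rap by 1.92 ± 0.16 (adjusted p = 2.3e-05), Il1rn by 1.73 ± 0.38 (adjusted p = 0.0090), Il1r2 by 1.60 ± 0.23 (adjusted p = 0.00093), Il1r1 by 1.35 ± 0.21 (adjusted p = 0.0012) and Il18r1 by 0.77 ± 0.20 (adjusted p = 0.019). Without TNFdARE mLN library C, Il18r1 (0.62, adjusted p = 0.11) and Il1rn (1.52, adjusted p = 0.066) no longer passed. Both were also lost with a covariate for sample-sheet number (edgeR adjusted p = 0.096 and 0.051, in that order). In the fit of all 42 libraries, Il1rn (edgeR adjusted p = 0.12) and Il1r1 (0.079) were lost. Without both ileal Treg libraries of experiment A, which held the most plasma cell RNA, Il18r1 also missed the threshold (0.63, adjusted p = 0.066), a setting added after the data were seen. Il1rap (-0.54 ± 0.26, edgeR adjusted p = 0.14) passed without WT ileal library B (-0.79, adjusted p = 0.015), and Sigirr (-0.18 ± 0.15, adjusted p = 0.39) without WT ileal library C (-0.32, adjusted p = 0.031). Fibroblast markers summed to between 13.2 and 1449 CPM in TNFdARE and between 15.4 and 567 CPM in WT ileal Treg. In mLN Treg they summed to at most 2.17 CPM, and their part in Il1r1 was not tested.

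In Treg of the synovium against the joint nodes, 4 of 8 genes were higher (37.7% of all genes passed). Il1rl1 was higher by 3.34 ± 0.13 (edgeR adjusted p = 2.0e-07), Il18rap by 2.45 ± 0.15 (adjusted p = 2.3e-06), Il1r1 by 6.92 ± 1.04 (adjusted p = 0.00071) and Il18r1 by 0.70 ± 0.24 (adjusted p = 0.046). The Il1r1 value moved to 7.69 without TNFdARE joint node library A and to 6.21 without TNFdARE synovial library B. The fibroblast markers stood at 942 to 11054 CPM in the synovial and at 0.736 to 3.21 CPM in the joint node Treg libraries, and their part in Il1r1 and Il1rl1 was not tested. The Il18r1 call was lost in 9 of the single-library omissions (adjusted p between 0.063 and 0.24). It was also lost with the sample-sheet covariate (edgeR adjusted p = 0.14), without the filter (0.053) and in limma voom (adjusted p = 0.19). Il1r2 did not pass (1.56 ± 0.74, edgeR adjusted p = 0.13). It passed as higher without WT synovial library A (2.05, adjusted p = 1.8e-05) and as lower without WT synovial library B (-1.55, adjusted p = 0.00043), so the WT pair sets its direction. Il1rn without TNFdARE synovial library B passed as lower (adjusted p = 0.0011).

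Between the tissues, ileal Treg held less Il1rl1 than synovial Treg (-1.60 ± 0.22, edgeR adjusted p = 0.0028) and more Il1rn (adjusted p = 0.021), while 7.42% of all genes passed. Il1r2 (0.21 ± 0.76, edgeR adjusted p = 0.90) passed as higher without WT synovial library B (3.31, adjusted p = 0.00035). With 4 of 5 synovial Treg libraries at 0 counts, no fold is given for Il1rn. That call was lost without WT synovial library A (adjusted p = 0.060), without TNFdARE ileal library B (0.052) and without both ileal libraries of experiment A (0.10). Il18rap was -0.61 ± 0.17 (edgeR adjusted p = 0.056), and passed without WT synovial library B (adjusted p = 0.019) or WT ileal library C (0.029).

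**Figure D5:**
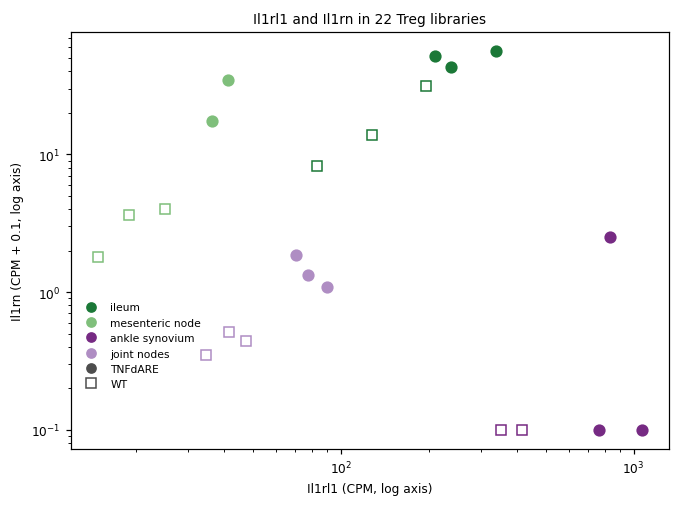
Il1rn (0.1 added) against Il1rl1 in the Treg libraries, both in CPM on log axes, filled circles for TNFdARE and open squares for WT. Ileal libraries lie at 8.16 CPM of Il1rn or above, synovial ones lie highest in Il1rl1 with 4 of 5 at 0 Il1rn, and joint node ones stay at or below 1.76 CPM of Il1rn.

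In Tconv of the ileum against the mLN, 6 of 8 genes were higher and 1 lower (61.0% of all genes passed): Il1r2 by 4.81 ± 0.16 (edgeR adjusted p = 7.5e-10), Il1r1 by 4.68 ± 0.29 (adjusted p = 7.0e-08), Il18rap by 3.96 ± 0.31, Il1rl1 by 3.85 ± 0.52, Il1rn by 2.29 ± 0.57 and Il18r1 by 1.56 ± 0.15 (adjusted p of 0.0043 or less). Without mLN WT library C the Il1rl1 value was 5.37, and without mLN WT library A the Il1rn value was 3.04. Fibroblast markers summed to between 17.8 and 109 CPM in TNFdARE and between 3.23 and 200 CPM in WT ileal Tconv. In mLN Tconv they summed to at most 0.323 CPM, and their part in Il1r1 was not tested. Sigirr was lower by a small margin (-0.20 ± 0.07, edgeR adjusted p = 0.026), a call lost in 6 single-library omissions (adjusted p between 0.051 and 0.087). Il1rap was -0.32 ± 0.13 (edgeR adjusted p = 0.051), and passed with the replicate block (-0.37, adjusted p = 0.018) and without WT ileal library A (-0.45, adjusted p = 0.0022).

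In synovial against joint node Tconv, with 1 WT synovial library, 6 of 8 genes were higher (34.8% of all genes passed). Il1rl1 was higher by 6.15 ± 0.45 (edgeR adjusted p = 1.3e-05), Il18rap by 5.26 ± 0.19 (adjusted p = 2.0e-07), Il1r1 by 4.16 ± 0.58 (adjusted p = 0.00053), Il1r2 by 3.04 ± 0.23 (adjusted p = 1.6e-05), Il18r1 by 2.49 ± 0.19 (adjusted p = 1.6e-05) and Sigirr by 0.41 ± 0.11 (adjusted p = 0.016). Il1r1 moved to 4.76 without TNFdARE joint node library B, and Il1rl1 to 6.76 without WT joint node library C. Fibroblast markers summed to 502 and 1076 CPM in TNFdARE and 188 CPM in WT synovial Tconv, and to at most 5.79 CPM in joint node Tconv. The part of fibroblast RNA in Il1r1 and Il1rl1 was not tested. The Sigirr call was lost with the replicate block (0.33, adjusted p = 0.057) and with the sample-sheet covariate (0.48, adjusted p = 0.10). It was also lost without WT joint node library B (edgeR adjusted p = 0.063) or TNFdARE joint node library C (0.066). The WT synovial Tconv library held 908 CPM of CD8 and NK markers, against 32.8 and 81.3 CPM in the TNFdARE libraries. It was also the highest group for Il18r1 (176 CPM) and Il18rap (191 CPM), and the part of those cells was not tested.

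Group means of Il1rl1 ran from 885 CPM in TNFdARE synovial Treg down to 0.205 CPM in WT mLN Tconv. Of the 15 neighbouring pairs in that order, 6 did not overlap between libraries. Il1r2 ran from 399 CPM in TNFdARE ileal Tconv, followed by 389 CPM in TNFdARE synovial Treg, to 0.538 CPM in WT joint node Tconv, with 5 of 15 pairs apart. Il1r1 ran from 143 CPM in TNFdARE ileal Tconv to 0.379 CPM in WT joint node Treg, with 3 pairs apart. Il18rap (191 to 2.42 CPM) and Il1rn (50.1 to 0 CPM) had 3 pairs apart each, and Il18r1 (176 to 21.3 CPM), Il1rap and Sigirr 2 each. The other neighbours overlapped.

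Over the 16 group means of log2 CPM, the genes most like each member were ranked by Pearson's r among 10258 eligible genes, as a description in which groups share site and sort. Il1rl1 was most like Klrg1, a receptor of effector T cells (r = 0.99), then Map6, C1qtnf12, Anxa4 and Cd80. Il1r2 was most like Aim2, a DNA sensor (r = 0.95), and Casp4, the NF-kB subunit Relb, and Penk were also among its 5 most alike genes. Il1r1 was most like Plekhf1 (r = 0.93), then Tmem176a, Actn2, Ypel5 and Cxcr6. Il18rap was most like Hip1 (r = 0.97), then Fam92a, Plek, Cass4 and Mapre3. Il18r1 was most like Racgap1 (r = 0.93), then Mical1, Dtnbp1, Zc3h14 and Sept8. Il1rn was most like Gjb2 (r = 0.94), then Pla2g16, Glt28d2, Pold4 and Itga4. Sigirr was most like Il10rb (r = 0.93), and Il1rap most like Rnf220 (r = 0.85). Among the members, the neighbours Il18r1 and Il18rap had r = 0.92, Il1rl1 and Il18rap 0.80, and Il1r2 and Il1r1 0.41.

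The rest of the pathway was read from a list of 35 ligands, other receptors, signalling and feedback genes and inflammasome genes. Between genotypes, 3 of 24 tested genes were higher in TNFdARE mLN Treg (5.68% of all genes passed), 3 of 24 in joint node Treg (5.70%), 2 of 24 in mLN Tconv (2.36%) and 3 of 24 in joint node Tconv (2.79%). None passed in the ileum (28 tested) or synovium (26 tested). Casp1, the protease that matures interleukin-1 beta and interleukin-18, and Casp4, the non-canonical inflammasome caspase, were called in all 4 node comparisons. Casp1 rose by 1.75 ± 0.19 in mLN Treg (edgeR adjusted p = 0.00034), 1.68 ± 0.12 in joint node Treg (adjusted p = 3.0e-06), 2.26 ± 0.19 in mLN Tconv (adjusted p = 9.3e-05) and 2.84 ± 0.14 in joint node Tconv (adjusted p = 2.5e-08). Casp4 rose by 1.75 ± 0.17, 1.48 ± 0.15, 2.48 ± 0.18 and 2.81 ± 0.18 in the same groups (edgeR adjusted p between 3.0e-07 and 0.00021). The third gene was Tnfaip3, an NF-kB feedback inhibitor, in mLN Treg (1.53 ± 0.39, edgeR adjusted p = 0.042), Pycard, the inflammasome adaptor, in joint node Treg (0.32 ± 0.08, adjusted p = 0.039) and Irak2 in joint node Tconv (0.46 ± 0.11, adjusted p = 0.040).

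Treg against Tconv, 12 of 24 listed genes were higher and 4 lower in the mLN (38.6% of all genes passed), and 13 higher and 5 lower in the joint nodes (43.2%). Il1rl2, the interleukin-36 receptor, was lower in Treg of both nodes (-3.24 ± 0.20 and -3.65 ± 0.21, edgeR adjusted p = 1.4e-07 and 3.1e-09). In the ileum 6 of 28 were higher and 1 lower (14.8% of all genes passed), led by Irak2 (1.05 ± 0.17, edgeR adjusted p = 0.0021), Gsdmd and Il18. The part of epithelial RNA, whose marker sums in ileal Treg are given above, in the Il18 difference was not tested. None of 26 passed in the synovium (1.10%). In ileal against mLN Treg, 12 of 28 were higher and 3 lower (29.2% of all genes passed), led by the feedback genes Zc3h12a (2.17 ± 0.12), Nfkbiz (2.92 ± 0.22) and Tnfaip3 (4.28 ± 0.35, edgeR adjusted p of 2.5e-05 or less). In synovial against joint node Treg, 12 of 25 were higher and 5 lower (37.7%), with Nfkbiz (2.10 ± 0.14) and Tnfaip3 (4.18 ± 0.29) again first (edgeR adjusted p of 5.9e-06 or less).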

How the data were processed

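RNA of sorted Treg and Tconv entered the SMART-Seq v4 PLUS protocol, per the labels' protocols, and which of the stated input amounts each library had is not given there. The authors deposited raw counts per gene and a table of FPKM values, whose between-library normalisation is not given in the sources used here. The submitters' processing notes name GRCm38, Bowtie2 (2.3.3.1) and cutadapt (1.15). The counting program and strand setting are not given in the sources used here.

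Gene symbols and positions came from GENCODE M21, with symbols for 46005 of 46603 identifiers. Counts were tested with edgeR 4.0.16 (R 4.3.3): TMM factors, filterByExpr, 1 mean per group, quasi-likelihood F test and Benjamini-Hochberg adjustment over all genes of a comparison, with 0.05 as the threshold. Each site was fitted on its own, and comparisons of sites used the libraries of 1 cell type at both sites. Standard errors are the fold change over the root of F. The procedure was tested on simulated data. FPKM served for levels per length and for the ratio as an alternative. Log2 CPM for the search of alike genes had a prior count of 2, and genes below 10 CPM in every group were left out of it. The ratio was tested by exact permutation (scipy 1.17.1). Marker sums used the same CPM.

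Groups follow the labels. Experiment letters mark shared experiments in the labels. Deviations of same-letter TNFdARE and WT libraries correlated with r between 0.0284 and 0.502 (median 0.29, above 0.1 in 13 of 18 pairs), and the block was an alternative. No replicates were near-identical. Nothing says that libraries came from separate animals, so p-values measure the spread between these libraries, which may be partly technical. Floors and intervals would cover counting error only, as the reads carry no molecular identifiers. Alternatives were RLE factors, DESeq2 1.42.0, limma 3.58.1 voom with quality weights, no filter, the replicate block, a sample-sheet covariate, only the groups compared, all 42 libraries, and omission of each library. The covariate set 10 libraries with sample-sheet numbers 33 to 44 apart, and what that number marks is not given in the sources used here. They include every WT synovial library and no mLN or ileal Tconv library. The covariate is thus confounded in part with site, cell type and, in the synovium, genotype.

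The members and lists were chosen with earlier results of these data known. All 8 members were tested in every comparison, and the text gives those that passed, with values of others for part of the comparisons. It adds up to 3 pathway genes of the smallest adjusted p where a comparison of that list is described, and genes among the 5 most alike each member by r. Genes named beyond these are controls and markers. 1 of the most alike genes is not reported here.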

Additional observations from a re-analysis of the deposited data

Results flagged for a closer look

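In the main edgeR fit, Il1r2 was the only one of the 8 genes whose genotype difference passed as different between Treg and Tconv, in the joint nodes. The interaction was -2.45 ± 0.37 on the log2 scale (edgeR adjusted p = 0.0076): the genotype difference was 2.78 ± 0.18 in Treg and 5.23 ± 0.28 in Tconv. All 3 TNFdARE libraries lay above all 3 WT libraries in each cell type. Over the omission of single libraries the interaction lay between -2.79 and -2.06 (adjusted p between 0.0035 and 0.035). It did not pass in limma voom (-2.76, adjusted p = 0.32) or in the fit of all 42 libraries (-2.44). Foxp3 (-2.37 ± 0.15), Casp1 (-1.16 ± 0.18) and Casp4 (-1.33 ± 0.23) also passed in this interaction, with edgeR adjusted p of 0.017 or less. The WT joint node Tconv libraries held 0.538 CPM of Il1r2 on average. The cause was not tested.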

How the results depend on the processing

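Of 62 calls of the 8 genes, 38 passed in every alternative that could be fitted, 24 were lost in at least 1 and none changed sign. DESeq2 and RLE factors lost none, limma voom lost 4, the sample-sheet covariate 5, the replicate block 2, no filter 1, only the groups compared 2, and the fit of all 42 libraries 14. Omission of single libraries lost 14. Alternatives also gained calls: 14 with DESeq2, 16 without the filter, 9 in the fit of all 42 libraries, 7 with limma voom and 7 with the replicate block. Only the groups compared gained 6, RLE factors 1 and the sample-sheet covariate 0. Synovial Tconv Il1r2, with 1 WT library, was gained with DESeq2 (6.36), with only the groups compared (6.40) and in the fit of all 42 libraries (6.41). The fit of all 42 libraries lost, among genotype calls, ileal Tconv Il1r2 (adjusted p = 0.054) and Il1rn (0.24), mLN Tconv Il1r1 (0.37), joint node Treg Il18r1 (0.088) and mLN Treg Il1r1 (0.18), Il1rn (0.60) and Il1rap (1.0). Joint node Tconv Il1rl1 was lost with limma voom (0.082) and with only the groups compared (0.16), which also lost it in mLN Tconv (0.072). The cause was not tested. Calls among interactions numbered 1, against 8 with DESeq2, 8 without the filter, 4 with the replicate block, 0 with limma voom, 0 in the fit of all 42 libraries, and 1 to 2 over the omission of single libraries. The other families stayed within 1.5 times. The replicate block kept the mLN ratio difference of 2.39 but gave an exact p of 0.0625. The block changed no call of the 8 genes other than those given above.

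Uncalled Il1r2 values changed sign over the omission of single libraries: ileal minus synovial Treg lay between -0.28 and 3.31, synovial minus joint node Treg between -1.55 and 2.05, and synovial Treg minus Tconv between -0.23 and 3.34. Counts over all genes moved by more than 1.5 times in at least 1 setting, except in synovial against joint node Tconv (6748, from 5008 to 8617). For TNFdARE against WT they were, in Treg, 116 in the ileum (5 to 844), 842 in the mLN (194 to 1405), 28 in the synovium (0 with the replicate block to 3512) and 838 in the joint nodes (86 to 1726), and in Tconv 208 (92 to 1024), 350 (121 to 884), 92 (2 to 2144) and 410 (123 to 605) at the same sites. For Treg against Tconv they were 2353 (1264 to 3652), 5720 (2437 to 6200), 197 (41 to 3262) and 6351 (2980 to 7503). For sites they were 4881 in ileal against mLN Treg (1996 to 6564), 6177 in synovial against joint node Treg (3347 to 8879), 1271 in ileal against synovial Treg (484 to 6302) and 9672 in ileal against mLN Tconv (5915 to 9982). For interactions they were 3 in the ileum (0 to 98), 31 in the mLN (3 to 339) and 66 in the joint nodes (13 to 224), and for the Treg genotype difference 1 in ileum minus mLN (0 to 177) and 53 in mLN minus joint nodes (2 to 341). Depth limits the genes near 1 CPM: Il1rn had a count in 33 and Il1rl1 in 40 of 42 libraries.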
